A study of Mus musculus with 6 samples.

Results

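The BCL2 family decides whether the outer membrane of the mitochondrion stays sealed or is opened. Its transcripts were compared here between RANK-/- and RANK+/+ tumor cells for 10 members: the pro-survival genes Bcl2, Bcl2l1 and Mcl1, the pore-forming effectors Bax and Bak1, and the BH3-only genes Bid, Bad, Bbc3, Pmaip1 and Bcl2l11. Members were the genes of these symbols whose RefSeq accession was carried by a probe on the array. All 10 were measured, by 14 probes, and all 10 were tested among 22503 genes or unnamed transcripts.

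Pro-survival proteins bind and hold back the effectors, which otherwise assemble into pores, release cytochrome c and start the caspase cascade. BH3-only proteins sense damage, loss of growth factor or other stress, and either occupy the pro-survival proteins or engage the effectors directly. Much of this control is exerted on the proteins, by phosphorylation, cleavage and degradation, so transcript levels are 1 layer of it. In the mammary gland the family governs the loss of epithelium after weaning. RANK itself signals through NF-kB, and several family members are known NF-kB targets.

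The cells came from carcinomas driven by the polyomavirus middle T oncogene under the MMTV promoter (MMTV-PyMT), grown after orthotopic transplantation into mammary fat pads of C57BL/6 females of the same strain background. Live CD45- cells, which lack the common leukocyte surface protein, were sorted from the transplants. Tumor cells were RANK+/+ or carried the constitutive RANK deletion (RANK-/-), and both carried the oncogene. The hosts were RANK+/+, so any host fibroblast or vessel cell that passed the CD45- gate was RANK+/+ in both groups. RNA of 1 genotype was labeled with Cy5 and RNA of the other with Cy3 on each of 6 arrays, which formed 3 pairs with technical replicates A and B. Pair 1 had RANK-/- in Cy5 and pairs 2 and 3 had RANK+/+ in Cy5, so dye and pair cannot be told apart. This arrangement is that of the labels, which give arrays A and B of a pair the same dyes, whereas the methods describe dye swaps of each sample. The sign of every ratio rests on it. Separate source tumors for the RNAs of 1 genotype are not stated in the sample labels, and p-values then measure only the spread between these RNAs. Log2 ratios above 0 mean more signal labeled RANK-/- than labeled RANK+/+.

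Each channel showed 51.9% to 58.8% of the gene probes well above background. Technical replicate ratios correlated across genes with r of 0.973 to 0.983, whereas ratios of different pairs correlated with r of -0.279 to 0.178. Tnfrsf11a, the gene that encodes RANK, gave 2.03 in pair 1, 1.15 in pair 2 and 1.76 in pair 3 as log2 ratios. Its signal was thus higher where the label says RANK-/-, against that label, and whether its 1 probe lies in the deleted part is not given in the sources used here. Every direction below rests on the labels as they stand. In RNA of a mixed cell fraction, fewer cells of a type and less RNA per cell cannot be told apart.

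No member passed the limma threshold. The adjusted p was 0.999 for each of the 10 members, and 0 of 22503 genes (0%) passed, so the members were like the whole table in this. At an unadjusted p under 0.05, limma counted 0 of the 10 members, against 647 genes (2.88%). The rank product, the kind of test named in the methods, also called 0 members, and called 7 to 19 genes in all, depending on how its p was computed. Every member probe was well above background on all 6 arrays in both genotypes.

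Signs were shared by all 3 pairs in 4 members with loess normalization. Bcl2l1 and Bak1 had a higher signal labeled RANK-/- in every pair (2 of 10 members, against 9.93% of all genes). Bid and Bbc3 had a lower one in every pair (2 of 10 members, against 9.65% of all genes). The other 6 members changed sign between pairs. With median centring in place of loess, none of these 4 kept 1 sign, the means of Bcl2l1 and Bak1 were below 0, and Bcl2l11 alone of the 10 members had 1 sign (lower). Bak1 also lost its shared sign, in pair 2, with the Agilent processed signals and with the series table, which left 3 members. With 3 pairs, an exact two-sided sign-flip test cannot give a p below 0.25, which is the value it gave for Bcl2l1, Bak1, Bid and Bbc3.

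**Figure D1:**
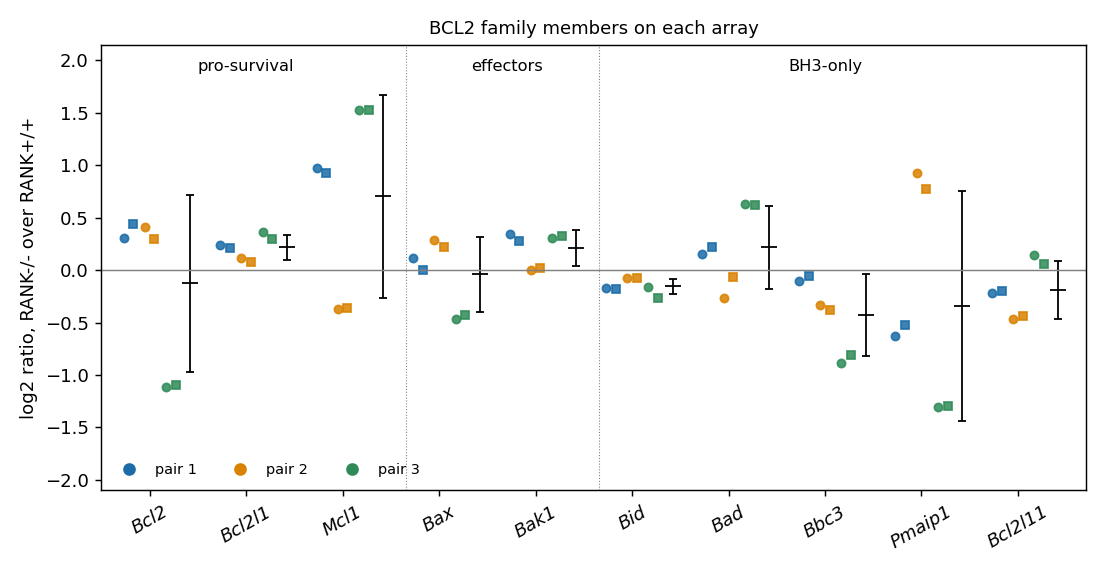
Log2 ratio of RANK-/- over RANK+/+ (y axis) of the 10 members (x axis), grouped by role; circles are arrays A and squares arrays B, colors are pairs, and the black bar is the mean with its SD over n = 3 pairs. Technical replicates lie together, while Mcl1 runs from -0.37 to 1.53 and Pmaip1 from -1.30 to 0.85 over the pairs.

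Because RANK signals through NF-kB, the 250 bases before each RefSeq start site of the members were searched on both strands for the NF-kB letters GGNNTTTCC. The RefSeq promoter table (GRCm38.p6) held 15 such windows for 9 members, and Pmaip1 was not matched in it. The letters lay in 3 of the 15 windows, 1 each of Bcl2l1, Mcl1 and Bbc3, and in 4.93% of the 32851 windows of the whole table. These 3 windows are printed 5' to 3' in the direction of the gene, with each match in capitals. Bcl2l1 held 1 match on each strand, and those of Mcl1 and Bbc3 read on the opposite strand. They lie at chr2:152830718-152830967, minus strand (Bcl2l1), chr3:95658471-95658720, plus strand (Mcl1) and chr7:16309333-16309582, plus strand (Bbc3), in a build that is not the one of the array files.
Bcl2l1: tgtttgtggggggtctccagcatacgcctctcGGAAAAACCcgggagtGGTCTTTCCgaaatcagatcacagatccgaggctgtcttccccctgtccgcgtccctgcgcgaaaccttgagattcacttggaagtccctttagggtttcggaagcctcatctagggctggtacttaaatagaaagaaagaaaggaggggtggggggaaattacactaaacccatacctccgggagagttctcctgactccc
Mcl1: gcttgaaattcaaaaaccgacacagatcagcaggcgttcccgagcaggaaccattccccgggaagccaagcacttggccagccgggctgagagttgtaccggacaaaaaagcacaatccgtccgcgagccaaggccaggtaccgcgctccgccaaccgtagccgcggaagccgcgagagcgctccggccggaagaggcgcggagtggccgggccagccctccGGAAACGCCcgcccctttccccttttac
Bbc3: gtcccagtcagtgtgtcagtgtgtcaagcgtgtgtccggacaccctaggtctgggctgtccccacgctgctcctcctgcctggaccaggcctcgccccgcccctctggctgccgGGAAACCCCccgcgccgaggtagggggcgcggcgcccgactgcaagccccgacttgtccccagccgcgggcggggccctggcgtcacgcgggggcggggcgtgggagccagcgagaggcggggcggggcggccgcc

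The matches began 218 and 202 bases before the start site in Bcl2l1, 28 in Mcl1 and 136 in Bbc3. The array ratios of the 3 genes did not run together: Bcl2l1 was above 0 in every pair, Bbc3 below 0 in every pair, and Mcl1 on both sides. In all, 10 motifs are given, searched after the array values were known; shares in brackets are of all windows in the table. Longer NF-kB and p53 letters were also searched and are not given. The FOXO letters GTAAACA matched 2 of the 15 windows, of Bbc3 and Bcl2l11 (3.17%), and the E-box CACGTG matched 2, of Bax and Bbc3 (6.02%). The GC box GGGCGG matched 10 (32.7%) and CCAAT matched 4 (33.8%). No window held the STAT letters TTCNNNGAA (7.02%), TATAAA (12.4%), the CRE letters TGACGTCA (1.55%) or the ATF4 letters TGACGCAA (0.438%) or TTGCATCA (0.791%). The member windows had a median GC content of 64.4%, against 52.4% over all windows, and a median of 21 CpG pairs, against 6. A match is a run of letters and was not tested as a binding site.

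The pro-survival genes are described first. Bcl2 encodes the founding member, which blocks pore formation and is a target of BH3 mimetic drugs. Its log2 ratio was 0.37 in pair 1, 0.35 in pair 2 and -1.10 in pair 3, a mean of -0.13 ± 0.85 (SD, n = 3; 95% interval of limma -1.09 to 0.84). Pairs 1 and 2 were alike and slightly above 0, and pair 3 alone went the other way by more than 2-fold. Without replicate 3 the mean was 0.36. In the signals of the separate channels on the log2 scale, the RANK-/- values were 10.77, 10.90 and 10.07 and the RANK+/+ values 10.40, 10.55 and 11.17 in pairs 1 to 3, so both channels of pair 3 lay outside the range of the other pairs, in opposite directions.

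Bcl2 also lies near the deleted gene on mouse chromosome 1, with 2 protein-coding genes, Zcchc2 and Phlpp1, between it and Tnfrsf11a in the RefSeq order. Both were tested. Zcchc2 had log2 ratios of -0.12, 0.65 and 0.19 and Phlpp1, a phosphatase of AKT, had 0.62, -0.18 and 0.10. None of the 3 genes next to Tnfrsf11a in this stretch shared its sign in all 3 pairs.

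Bcl2l1 encodes BCL-XL, which also guards the effectors, and, through its short splice form, a pro-death protein that these probes were not shown to separate. Its log2 ratio was 0.22, 0.10 and 0.33 in pairs 1 to 3 (0.22 ± 0.12, 95% interval -0.17 to 0.60). The dimmer probe of the gene gave 0.11, 0.25 and 0.40. All 6 values of the 2 probes were thus above 0, and the spread between pairs was among the smaller ones of the family, although still 3.11 times the technical SD. For the dimmer probe the channel signals, averaged over arrays A and B, did not overlap between genotypes (8.19 to 8.26 labeled RANK-/- and 7.86 to 8.13 labeled RANK+/+), whereas for the brighter probe they did (13.28 to 13.83 and 12.95 to 13.61). By the brightest probe of each gene, 3.66% of all genes had all such averages labeled RANK-/- above those labeled RANK+/+. Single arrays of the dimmer Bcl2l1 probe did overlap, since the lowest labeled RANK-/- was 8.12 and the highest labeled RANK+/+ was 8.20. The direction depended on the scaling: with median centring in place of loess the mean was -0.090.

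Mcl1 encodes the short-lived pro-survival protein that is rapidly lost when its synthesis stops. Its log2 ratio was 0.95 in pair 1, -0.37 in pair 2 and 1.53 in pair 3, a mean of 0.70 ± 0.97 (95% interval -0.39 to 1.79), or 1.63-fold on the linear scale. The mean was 0.29 without replicate 3 and 1.24 without replicate 2, and 0.33 with median centring. The dimmer probe gave 0.43, -0.52 and 0.76, the same signs in each pair at a smaller size in pairs 1 and 3. Pair 3 was high and pair 2 low on both of its technical arrays by both probes. The SD between pairs was 42.8 times the technical SD, the highest such ratio among the 10 members. The channel signals overlapped, at 14.83, 14.22 and 15.24 labeled RANK-/- and 13.88, 14.58 and 13.71 labeled RANK+/+.

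**Figure D2:**
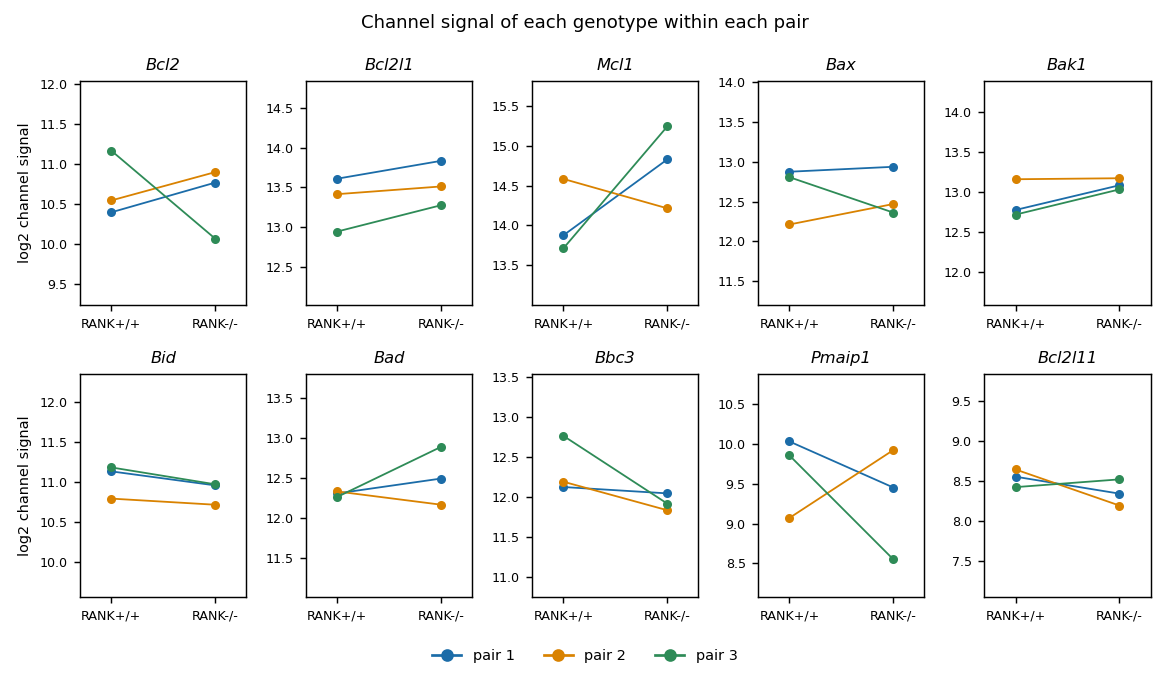
Log2 channel signal (y axis) of each genotype (x axis) for the brightest probe of each member; a line joins the channels of 1 pair, and every panel spans the same log2 range. Bcl2, Mcl1 and Pmaip1 have lines that cross, the Bid lines all run down gently, and in Bbc3 the signals labeled RANK-/- (11.83 to 12.04) lie below those labeled RANK+/+ (12.12 to 12.76).

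The effectors differed little. Bax, which moves from the cytosol to the mitochondrion when activated, had log2 ratios of 0.06, 0.26 and -0.44 (-0.04 ± 0.36, 95% interval -0.57 to 0.49). Pairs 1 and 2 were above 0 and pair 3 below, the same signs as Bcl2 at a smaller size. Bak1, the effector that resides on the mitochondrion and is held by MCL1 and BCL-XL, had 0.31, 0.01 and 0.32 (0.21 ± 0.17, 95% interval -0.19 to 0.62). The pair 2 value of Bak1 was close to 0, and its channel signals overlapped between genotypes. With median centring the mean of Bak1 was -0.080.

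Of the BH3-only genes, Bid and Bbc3 were below 0 in every pair. Bid links death receptors to mitochondria once caspase 8 has cleaved its protein. Its log2 ratio was -0.18, -0.08 and -0.21 (-0.15 ± 0.07, 95% interval -0.52 to 0.22). With median centring pair 1 of Bid was at 0.060. The spread with loess was the narrowest of the family, 1.58 times the technical SD, and 5.35% of all genes tested had a spread as narrow or narrower. The signals of the genotypes overlapped (10.72 to 10.97 labeled RANK-/- and 10.79 to 11.18 labeled RANK+/+), since the level differed more between pairs than between genotypes.

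Bbc3 encodes PUMA, a p53 target that binds all pro-survival members. Its log2 ratio was -0.08, -0.36 and -0.85 (-0.43 ± 0.39, 95% interval -0.98 to 0.12), or 0.743-fold on the linear scale. Pair 3 gave the lowest value and pair 1 was close to 0. The channel signals, averaged over arrays A and B, were 12.04, 11.83 and 11.92 labeled RANK-/- and 12.12, 12.19 and 12.76 labeled RANK+/+. By the brightest probe, no member had all signals labeled RANK-/- above those labeled RANK+/+ (3.66% of all genes), though the dimmer Bcl2l1 probe did. Bbc3 was the only member of the 10 with all of them below by its brightest probe, a pattern held by 3.82% of all genes. This holds for the averages only, since array A of pair 1 gave 12.10 labeled RANK-/- and array B of pair 1 gave 12.04 labeled RANK+/+. The mean of Bbc3 was -0.22 without replicate 3 and -0.68 with median centring, under which pair 1 was at 0.17. Bbc3 ranked 1466 of 22503 by the p of limma, the foremost of the members.

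Pmaip1 encodes NOXA, which binds MCL1 and promotes its degradation. Its log2 ratio was -0.58 in pair 1, 0.85 in pair 2 and -1.30 in pair 3 (-0.34 ± 1.09, 95% interval -1.56 to 0.87). Pairs 1 and 3 were low and pair 2 high, the reverse of Mcl1 in every pair. The difference between the log2 ratios of Mcl1 and Pmaip1 was accordingly 1.53, -1.22 and 2.83. Without replicate 3 the mean of Pmaip1 was 0.14. Over all genes, ratios of pair 2 correlated at r of -0.279 with pair 1 and -0.079 with pair 3. Those of pairs 1 and 3 correlated at 0.178. The share of all genes with the sign order of Pmaip1 or that of Mcl1 was not counted.

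Bad, whose protein is kept inactive by phosphorylation downstream of growth factors, had log2 ratios of 0.19, -0.17 and 0.63 (0.22 ± 0.40, 95% interval -0.34 to 0.77). Its dimmer probe gave -0.31, 0.27 and 0.86. The probes had the same sign in pair 3 alone, and with median centring the mean of the brighter one was -0.045. Bcl2l11, which encodes BIM, the FOXO-responsive killer of cells deprived of growth factor, had -0.21, -0.45 and 0.10 (-0.19 ± 0.28, 95% interval -0.65 to 0.28). The probe of its other RefSeq transcript gave -0.22, 0.90 and -0.15, so the Bcl2l11 probes were opposite in pairs 2 and 3.

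**Figure D3:**
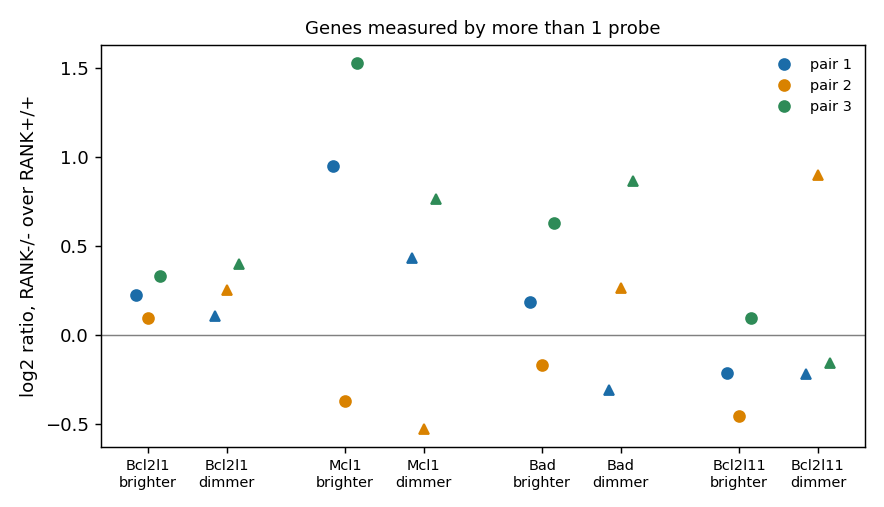
Log2 ratio of RANK-/- over RANK+/+ (y axis) for the 4 members with more than 1 probe (x axis); circles are the brighter probe, triangles the dimmer probe, and colors are pairs. The probes have the same sign in every pair for Bcl2l1 and Mcl1, and not for Bad and Bcl2l11, where pair 2 runs from -0.45 to 0.90.

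Large differences within single pairs were counted next. No member differed by 2-fold or more in pair 1 (0 of 10, against 6.5% of all genes) or in pair 2 (0 of 10, against 4.82%). In pair 3, 3 of 10 did (against 7.92%): Mcl1 upward, and Bcl2 and Pmaip1 downward. These 3 genes also had the widest spreads over pairs, wider than in 93.0%, 89.9% and 95.1% of all genes for Mcl1, Bcl2 and Pmaip1. Pairs differed by more than technical replicates did (by SD) in all 10 members and in 92.8% of all genes.

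By role, the pro-survival genes averaged a log2 ratio of 0.52, 0.03 and 0.25 in pairs 1 to 3 (0.26 ± 0.24). The effectors averaged 0.19, 0.13 and -0.06 (0.09 ± 0.13), and the BH3-only genes -0.17, -0.04 and -0.33 (-0.18 ± 0.14). These averages are those with loess. Under median centring, Bcl2 (-0.33) and Bcl2l1 (-0.090) had means below 0 and Mcl1 (0.33) one above. Both effectors then lay below 0 (Bax -0.30, Bak1 -0.080), as did all BH3-only genes. The mean over pro-survival members minus that over the 7 pro-death members was 0.58, 0.02 and 0.50 (0.37 ± 0.31). It was near 0 in pair 2 and of like size in pairs 1 and 3. The members that carried it differed: Mcl1 did so in both pairs, with Bcl2 adding to it in pair 1 and opposing it in pair 3, where Pmaip1 and Bbc3 lay low. Over all 10 members the median of the mean log2 ratios was -0.08, and over all genes tested it was 0.00438.

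**Figure D4:**
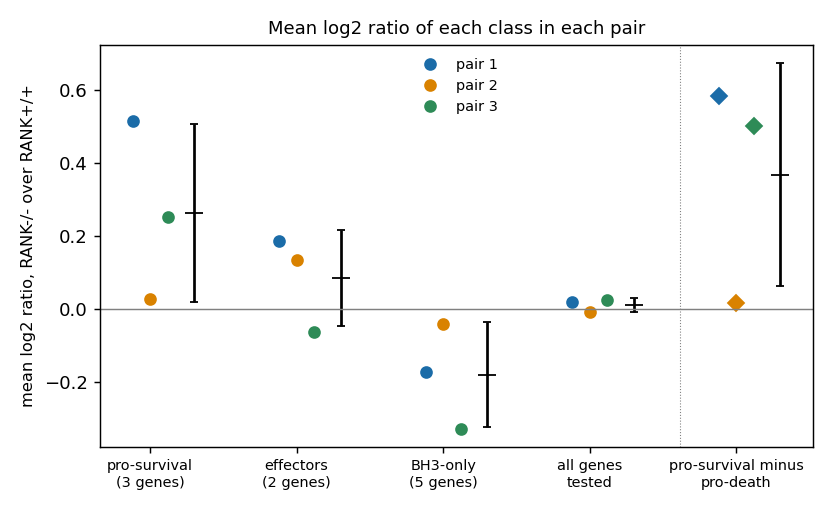
Mean log2 ratio of RANK-/- over RANK+/+ (y axis) of each role in each pair (colored circles) and the pro-survival minus pro-death difference (diamonds), with the mean and SD over n = 3 pairs in black. The difference is 0.58 and 0.50 in pairs 1 and 3 and 0.02 in pair 2, and the mean over all genes tested stays near 0.

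Binding partners were set side by side within each pair. The log2 ratio of Mcl1 minus that of Bcl2l11 was 1.16, 0.08 and 1.43. In pair 2 it was -1.27 with the dimmer Bcl2l11 probe and -0.072 with the dimmer Mcl1 probe, so its sign there depended on the probe. Mcl1 minus Bbc3 was 1.03, -0.011 and 2.37, and Mcl1 minus Bak1 was 0.64, -0.38 and 1.21. Both of these changed sign in pair 2. Bcl2l1 minus Bad was 0.04, 0.26 and -0.30, and Bcl2l1 minus Bak1 was -0.09, 0.08 and 0.01, so the ratios of Bcl2l1 and Bak1 were nearly equal in each pair. Bcl2 minus Bbc3 was 0.45, 0.71 and -0.25, and Bcl2 minus Bcl2l11 was 0.58, 0.81 and -1.20, both below 0 in pair 3.

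The other genes of the family gave no more regular picture. Of 15 listed, 11 were tested, 0 passed limma, 0 were higher in all pairs and 1 was lower, Bcl2l14, at -0.19, -0.65 and -0.17. Over all genes tested, 9.93% were higher and 9.65% lower in all pairs. The median of the 11 was -0.12 in pair 1, -0.46 in pair 2 and 0.14 in pair 3. Bcl2l10 and Hrk were not above background often enough to be tested, and Bcl2a1a and Bcl2a1b were not matched on the array.

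The widest ratios among them belonged to genes outside the core circuit. Bok, an effector-like gene controlled by protein turnover, had log2 ratios of -2.33, 1.46 and -1.27. Bnip3, a hypoxia-induced mitophagy receptor, had -2.06, 0.64 and -1.32, and its relative Bnip3l -0.52, 0.48 and 0.14. Bok and Bnip3 were low in pairs 1 and 3 and high in pair 2, the same signs as Pmaip1. Bik, an epithelial BH3-only gene of the endoplasmic reticulum, had -1.55, -1.01 and 1.13, and Bcl2l15 had 0.66, -1.94 and 0.56. Bmf, a BH3-only gene released when cells detach, had 0.30, -0.88 and 0.25. The pro-survival relatives were closer to 0: Bcl2l2, which encodes BCL-W, had 0.17, -0.46 and 0.19, and Bcl2a1d had 0.33, -0.40 and -0.36. Bcl2l12 had 0.10, -0.38 and -0.92, and Bcl2l13 had -0.12, -0.47 and 0.36.

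Downstream of the pore, 15 of 15 genes of release and of the apoptosome were tested and 0 passed limma. In all pairs 2 were higher and 2 lower, against 9.93% and 9.65% of all genes. Fis1, a fission receptor of the outer membrane, had 0.49, 0.06 and 0.54, and Vdac1, the main channel of that membrane, had -0.22, -0.0055 and -0.16. Of 6 inhibitor of apoptosis genes, 0 passed, 2 were higher in all pairs and 0 lower, against the same shares of all genes. Naip2 had 0.22, 0.36 and 1.18 and Birc3, an NF-kB target that encodes cIAP2, had 0.06, 0.03 and 0.60. Pair 3 gave the highest value of both.

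Regulators of the family were measured too. Of 17 tested p53 genes, 0 passed limma, 1 was higher and 2 were lower in all pairs, against 9.93% and 9.65% of all genes. Cdkn1a, which encodes the cell cycle inhibitor p21, had 1.08, 1.07 and 0.23, whereas Gadd45a, a stress gene, had -0.69, -0.36 and -1.20. The p53 targets Cdkn1a and Bbc3 thus lay on opposite sides of 0 in every pair. Gadd45a and Sesn1 (-0.69, -0.08 and -0.75), of the same list as Cdkn1a, had the sign of Bbc3 in every pair. Of 20 regulators of BH3-only and pro-survival genes, 0 passed limma, 4 were higher and 0 lower in all pairs, against the same shares. Stat3, a transcription factor known to drive Mcl1 and Bcl2l1, had 0.95, 0.35 and 1.23. Atf4, which drives the integrated stress response, had 0.42, 0.05 and 0.61. Like Mcl1, Stat3 was highest in pair 3 and lowest in pair 2, but it stayed above 0 in every pair.

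Several lists that mark cell state or cell type also moved between pairs. The 9 tested mitosis genes had a median log2 ratio of -0.79, 0.75 and -1.26, with all 9 below 0 in pairs 1 and 3 and above 0 in pair 2. Their summed linear signal was 15739 to 26035 in the channels labeled RANK-/- and 16177 to 34063 in those labeled RANK+/+. Pmaip1 had the signs of this list in every pair and Mcl1 the opposite ones, and the part of mitosis in either value was not tested. Birc5, the inhibitor of apoptosis gene that is itself expressed in mitosis, had -1.16, 0.50 and -0.88.

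Fibroblast markers (10 of 10 tested, 4 higher in all pairs, against 9.93% of all genes) had medians of 0.36, 0.57 and 1.88. Their summed signal was 148040 to 242041 labeled RANK-/- and 54551 to 150979 labeled RANK+/+. Luminal markers (10 of 10 tested) had medians of -0.02, -0.61 and 0.73, with sums of 172698 to 486004 and 200248 to 308928. Basal markers (10 of 10 tested) had medians of 0.17, -0.06 and 0.03, with sums of 32781 to 39341 and 43550 to 56873. The luminal median was below 0 in pair 2 and above 0 in pair 3, as were Mcl1 and the brighter Bad probe. In pair 1 it was -0.02, against 0.95 for Mcl1 and 0.19 for Bad. The dimmer Bad probe was above 0 in pair 2 (0.27). Pair 3, in which Mcl1 was high and Bcl2 and Pmaip1 were low, was also the pair with the highest fibroblast median. That median was higher in pair 2 than in pair 1, unlike Mcl1.

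Endothelial markers (10 of 10 tested) had medians of -0.01, -0.18 and 0.56, with sums of 5712 to 7010 labeled RANK-/- and 5002 to 7324 labeled RANK+/+. Leukocyte markers (8 of 10 tested) had medians of -0.45, 0.07 and 0.08, with sums of 9005 to 11670 and 8603 to 32897. The markers not tested were Cd79a, above background on 0 arrays, and Cd3d, above it on 2 arrays labeled RANK-/- and 3 labeled RANK+/+. Ptprc, which encodes CD45, had ratios of -0.93, 0.10 and 0.14. The neutrophil genes S100a8 (-3.99, 0.07 and -0.11) and S100a9 (-4.12, -0.04 and -0.25) were far lower in pair 1 than in the other pairs. The other tested leukocyte markers did not share this drop. In pair 1 they were at -0.65 (Csf1r), -0.26 (Cd68), -0.11 (Lyz2), 0.02 (Cd3e) and 0.49 (Itgam, which encodes CD11b). Dissociation genes (9 tested) had medians of 0.11, -0.45 and 0.20, with sums of 249941 to 330459 and 210583 to 262265. Jun was the 1 gene of that list above 0 in all pairs, as 9.93% of all genes were, at 0.44, 0.20 and 0.20. The part of these cell types and of dissociation in the members' values was not tested.

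**Figure D5:**
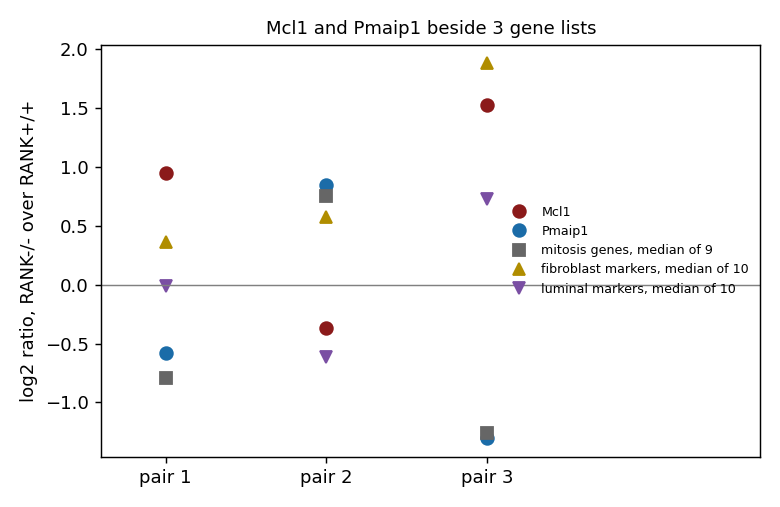
Log2 ratio of RANK-/- over RANK+/+ (y axis) of Mcl1 and Pmaip1 (circles) and the median of the mitosis, fibroblast and luminal lists (squares and triangles) in each pair (x axis). Pmaip1 lies beside the mitosis median in each pair, at 0.85 and 0.75 in pair 2 and -1.30 and -1.26 in pair 3, and Mcl1 lies on the other side of 0.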

How the data were processed

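RNA of sorted CD45- tumor cells was hybridized to 2-color SurePrint G3 Mouse arrays. The authors extracted the spots with Agilent Feature Extraction 10.7.3.1. The deposited scanner files hold each spot's median intensity and median local background intensity without normalization, processed intensity values, and their Cy5 over Cy3 ratio on the log10 scale. The series table holds the authors' normalized log2 ratio, with no direction given. It correlated with the scanner ratios turned to RANK-/- over RANK+/+ at r of 0.825 to 0.858 and was taken to run that way. The processed intensity and the series table served only as alternatives, and the log10 ratio was not used.

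Median signals were corrected with normexp (offset 50), control and outlier spots were removed, and ratios were normalized by intensity loess and Aquantile in limma 3.58.1 (R 4.3.3, data.table, version 1.17.8). Spots of a probe were averaged, ratios were turned to RANK-/- over RANK+/+ from the dyes in the labels, and arrays A and B were averaged, so that n = 3 pairs. Probes stayed in if both arrays of 2 or more pairs had them well above background in 1 genotype, and the brightest probe stood for a gene. Symbols were matched by accession to RefSeq (GRCm38.p6) for 28026 of 55681 gene probes. Probe coordinates are not given, because the grid of the arrays is on mm9. The 3 ratios were tested with limma (intercept only, two-sided, Benjamini-Hochberg over 22503 genes, threshold 0.05). The steps were tested on simulated data. Precision is limited by the number of arrays, and all arrays lay on 1 slide, so slide could not be tested as a batch.

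The members and gene lists were chosen with earlier results of these data known. Named genes are all members with every probe, Tnfrsf11a, every other tested gene of the family, and from each further pathway list the 2 genes of largest mean with 1 sign in all pairs. Marker lists are given by their median in each pair and the range of their summed signal over pairs. The spread over single markers of a list is not shown by these values. Zcchc2, Phlpp1, Birc5, Sesn1, Ptprc, Cd79a, Cd3d, S100a8, S100a9, Csf1r, Cd68, Lyz2, Cd3e, Itgam and the promoter motifs were chosen after their values were seen. Alternatives covered background correction, normalization, starting signal, filter, choice of probe, technical replicates, dye, pairing, variance model, test, and leaving out each pair.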

Additional observations from a re-analysis of the deposited data

How the results depend on the processing

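No member passed the limma threshold under any of the 19 alternative fits, and 184 of 190 member values kept their sign. Part of these values could not change sign. The filters, the random block, the separate channels and the other variance model left every member mean unchanged. The mean over probes did so for members with 1 probe. Of the 12 settings whose 3 ratios were compared by sign, Bcl2l1, Bid and Bbc3 kept their shared sign in 11 and Bak1 in 9. The filter settings left all member ratios unchanged, and the mean over probes left those of Bak1, Bid and Bbc3 unchanged. Those signs could not change. Members with 1 sign in all pairs numbered 4 in the main setting, 1 with median centring, and 3 with the Agilent processed signals and with the series table. Median centring in place of loess turned Bcl2l1 (-0.090), Bak1 (-0.080) and Bad (-0.045). This setting moved the median of all genes by -0.18 and that of the 3909 genes with a mean log2 intensity of at least 12 by -0.32, and these 3 members are among the latter. Leaving out 1 pair at a time gave means of -0.37 to 0.36 for Bcl2, -0.19 to 0.16 for Bax and -0.94 to 0.14 for Pmaip1, with a turned sign only without replicate 3. The same ranges were 0.29 to 1.24 for Mcl1, -0.60 to -0.22 for Bbc3, 0.010 to 0.41 for Bad and -0.33 to -0.057 for Bcl2l11. The mean over probes gave 0.46 for Mcl1 and -0.0066 for Bcl2l11. The pro-survival minus pro-death difference was 0.26 to 0.54 over the alternatives, as a mean over pairs. In pair 2, where it was 0.02 in the main setting, its sign was not stable. It was below 0 there with median centring, the series table, the mean over probes and array B alone. For all genes, limma with the pair as a random block over 6 arrays called 13 genes (consensus correlation 0.962), the rank product 7 by a gamma approximation (4 higher, 3 lower) and 19 with exact p (10 higher, 9 lower; chosen after seeing the data), with 0 members in each. No paired analysis beyond the array ratio was possible because each array already holds both RNAs of a pair. With the channels as separate samples and no replicate block, 0 genes passed. The slide as a block was not run, since there is 1 slide. The cause of these differences was not tested. With 3 pairs, the limma intervals show the size of difference that could not be told from 0.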
